A study of Mus musculus with 2 samples.

Results

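The proteasome genes of mouse pancreatic islets were described in 2 RNA sequencing libraries. They were chosen by name alone, as the protein-coding genes whose symbol begins with Psm, a letter from a to g and a number, together with Pomp, and 50 of the 44713 genes in the count table met that rule. One of them, Psmc3ip, is matched by its name only: it encodes a recombination factor and no part of the proteasome. The db/db library came from C57BL/6 mice given as Lepr-/- in the labels, which lack a working leptin receptor and are a common model of obesity and type 2 diabetes. The db/m library came from C57BL/6 mice given as wild type in the labels. The sex and age of the mice, and how many mice gave the islets of a library, were not given in the sources used here. Since each group had 1 library, replicate error could not be measured and p-values were not computed. Every interval covers counting error alone (95%, exact) and describes the libraries and not the genotypes.

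The proteasome is the protease that degrades proteins tagged with ubiquitin in the cytosol and nucleus. Its barrel-shaped 20S core is built from rings of alpha subunits, which form the gate, and rings of beta subunits, of which Psmb5, Psmb6 and Psmb7 carry the cutting sites. The 19S particle sits on the end of the barrel, binds and removes ubiquitin and unfolds the substrate with a ring of ATPases. Immune signals such as interferon gamma replace the cutting subunits with Psmb8, Psmb9 and Psmb10, which gives the immunoproteasome. Secretory cells of the pancreas depend on the proteasome to clear misfolded proteins sent back from the endoplasmic reticulum.

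The db/db library held 18233695 counts and the db/m library 16271129. Levels are given as CPM, the counts relative to the size of the library, and were scaled by the TMM method, a trimmed mean of the log ratios of genes, which made 1 count worth 0.0516 CPM for db/db and 0.0653 CPM for db/m. The labels give islet cells as the source, yet the 10 acinar markers examined took 50.8% of all counts in db/db and 53.2% in db/m, and 8 beta cell markers took 0.165% and 0.145%. The summed markers of other cells stood at ratios of db/db over db/m of 0.847 (acinar, 0.846 to 0.847), 1.01 (beta, 0.992 to 1.03, most of it from Ins2), 4.51 (alpha, delta and PP, 4.21 to 4.82), 0.811 (duct, 0.737 to 0.893), 0.738 (endothelial, 0.583 to 0.934) and 1.35 (stroma, 1.03 to 1.78), and the part of these differences in the proteasome ratios was not tested. Of the 8 beta cell markers 4 were called at least 2-fold lower (Ins1, Nkx6-1, Slc2a2 and Mafa), and the median ratio of all 8 was 0.657. The proteasome values therefore come from RNA of a mixed pancreatic tissue, in which fewer cells of a type and less RNA per cell cannot be told apart. All 50 proteasome genes together had 11030 counts in db/db against 8083 in db/m, or 0.0605% and 0.0497% of the totals.

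The proteasome genes as a set were at nearly the same level in both libraries. Of the 50 genes, 42 had a mean of at least 1 CPM before scaling and were compared. None of the 42 was at least 2-fold higher or lower with an interval excluding a ratio of 1, against 7.87% of the 10300 genes compared in the whole table (3.83% higher and 4.04% lower). A ratio above 1 was found for 28 of the 42 (66.7%), against 52.4% of all genes compared. At a limit of 1.5-fold, again with an interval excluding 1, 2 were higher (Psmb2 and Psmb10) and 2 were lower (Psma5 and Psmg3) in the db/db library, against 8.63% and 8.87% of all genes compared. The summed CPM of the 50 genes was 569 in db/db against 528 in db/m, a ratio of 1.08 (1.05 to 1.11). The median log2 ratio of db/db over db/m was 0.08 over the 42 genes, with quartiles at -0.10 and 0.30, and 0.02 over all genes compared, with quartiles at -0.26 and 0.29.

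The interval of 8 genes lay above 1 and that of 4 lay below 1, which is 28.6% of the genes compared, against 38.9% in the whole table (20.7% above and 18.2% below). This split depended on the scaling. When the libraries were scaled by their total counts, which raised every log2 ratio by 0.18 and the median of all genes to 0.20, 20 intervals lay above 1 and 1 below, against 35.2% and 9.85% of all genes. At 1.5-fold, 5 genes were then higher and 0 lower, against 15.2% and 5.49% of all genes. The median of the proteasome genes was then 0.26, so that its distance to the median of all genes stayed at 0.06. For 36 of the 42 genes the interval stayed within 2-fold in both directions under TMM, and for the other 6 (Psma5, Psmb2, Psmd14, Psmd9, Psme2 and Psmg3) it reached 2-fold in a direction.

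**Figure D1:**
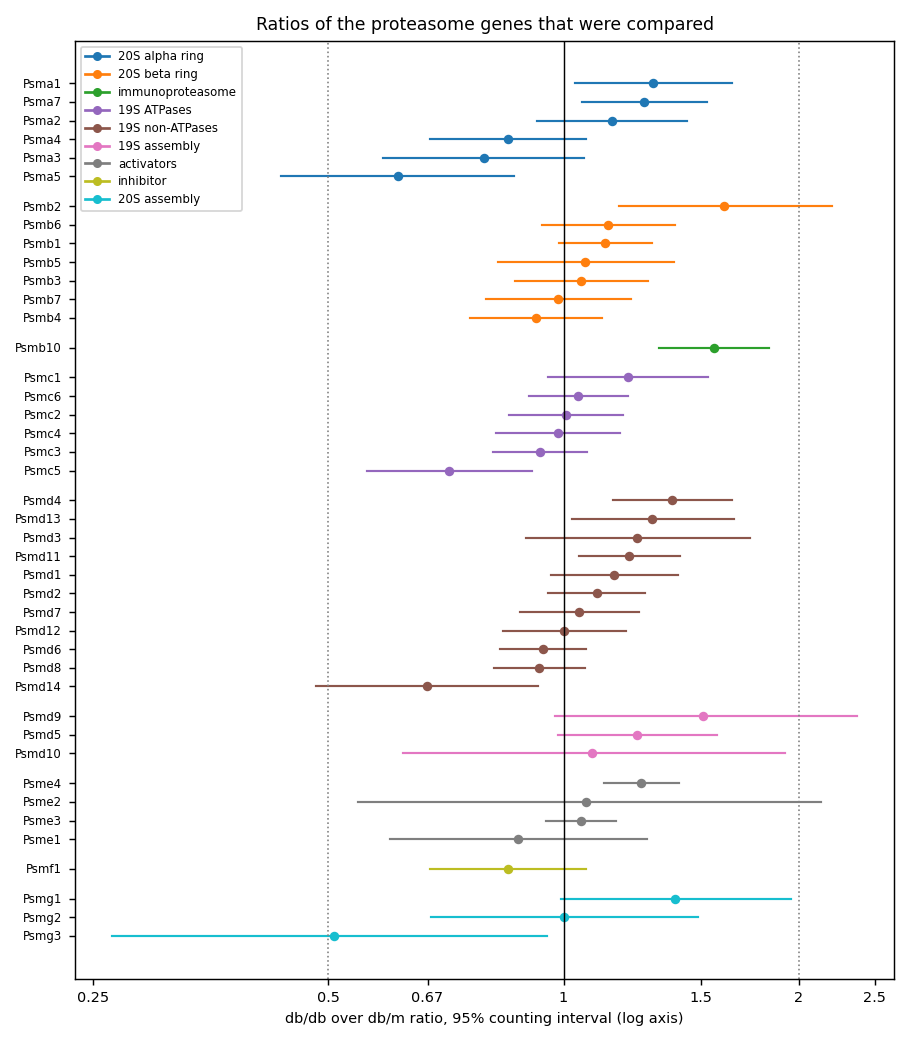
Ratio of db/db over db/m for the 42 proteasome genes compared, on a log axis, with 95% counting intervals, coloured by role. The solid line marks a ratio of 1 and the dotted lines 2-fold. The points lie between 0.508 (Psmg3) and 1.61 (Psmb2), and none passes a dotted line.

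To show the start regions of the genes whose values follow, the bases before the transcription start were read from the RefSeq promoter table for GRCm38.p6, which held 45 windows for 42 of the 50 genes. Psmb5, a core subunit, and Psmd9, an assembly factor, are shown as genes with a match to the antioxidant response element TGACNNNGC, the kind of site bound by the factors Nfe2l1 and Nfe2l2, and Psmb8 as an immunoproteasome subunit with a match to the gamma-activated site TTCNNNGAA. Psmd4 and Psme4 are shown as genes with intervals above 1 and a match to the ETS site CCGGAAG. They were picked by their ratios. The site also stood in the windows of Psmd11 and Psmd13, with intervals above 1. It stood as well in that of Psmg3, whose ratio was 0.508 (0.265 to 0.952), and in those of genes whose intervals include 1, such as Psmd6 (0.941). Each stretch covers the 150 bases before the start, written 5′ to 3′ on the strand of the gene, with the match in capitals. They lie at chr14:54617996-54618145 (minus strand) for Psmb5, chr5:123228040-123228189 (plus strand) for Psmd9, chr17:34198045-34198194 (plus strand) for Psmb8, chr3:95042615-95042764 (minus strand) for Psmd4 and chr11:30771625-30771774 (plus strand) for Psme4.
Psmb5: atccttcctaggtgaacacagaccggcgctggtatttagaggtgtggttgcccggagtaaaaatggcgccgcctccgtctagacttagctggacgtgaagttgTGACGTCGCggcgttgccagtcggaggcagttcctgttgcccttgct
Psmd9: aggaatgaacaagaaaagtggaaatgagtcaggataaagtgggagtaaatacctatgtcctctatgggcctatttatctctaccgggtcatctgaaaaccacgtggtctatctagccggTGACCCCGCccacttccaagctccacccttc
Psmb8: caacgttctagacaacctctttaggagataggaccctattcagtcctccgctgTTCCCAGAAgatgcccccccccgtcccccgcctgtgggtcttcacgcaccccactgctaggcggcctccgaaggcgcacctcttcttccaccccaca
Psmd4: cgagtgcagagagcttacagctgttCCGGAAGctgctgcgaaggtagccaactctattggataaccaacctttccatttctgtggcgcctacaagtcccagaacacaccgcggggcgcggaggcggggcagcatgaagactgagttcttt
Psme4: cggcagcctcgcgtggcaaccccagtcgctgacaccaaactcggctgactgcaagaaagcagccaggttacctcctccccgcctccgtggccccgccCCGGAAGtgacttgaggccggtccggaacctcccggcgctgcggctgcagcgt
The match ended 38 bases before the start in Psmb5, 22 in Psmd9, 88 in Psmb8, 118 in Psmd4 and 46 in Psme4.

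Over the full windows, from 250 bases before to 50 after the start and on both strands, the ETS site stood in 17 of the 45 windows of proteasome genes (37.8%) and in 8.86% of all 32851 windows of the table. The antioxidant response element stood in 13.3% of the proteasome windows against 12.4% of all, the CCAAT box (CCAAT) in 33.3% against 37.4%, and the gamma-activated site in 6.67% against 8.3%. The interferon-stimulated response element (GAAA, any 2 bases, GAAA) stood in 5 proteasome windows (11.1%, against 3.44%). They were those of Psmb3, Psmd4, Psmd9, Psme1 and Psmg4. The heat shock element (GAA, any 2 bases, TTC, any 2 bases, GAA) stood in 0 of the 45 windows and in 0.603% of all. The median log2 ratio was 0.14 over the 13 compared genes with an ETS site and 0.08 over the 22 without one. It was 0.14 over the 6 with an antioxidant response element and 0.07 over the 29 without. For the CCAAT box it was 0.12 (11 genes) against 0.08 (24). For the interferon-stimulated response element it was 0.27 (4) against 0.09 (31), and for the gamma-activated site 0.31 (2) against 0.07 (33). Compared genes without a window are on neither side, and these differences were not tested. Psmb10 was not among the genes with a match to any of the 6 motifs, but the matches do not tell whether it had a window. A match of letters is not a measured binding site.

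The alpha ring of the core held both higher and lower genes. Of 6 subunits compared, 3 had a ratio above 1 and 3 below, and the median log2 ratio was -0.02. Psma1 had 201 counts in db/db against 122 in db/m, or 10.4 and 7.97 CPM, a ratio of 1.3 (1.03 to 1.64). Psma7 stood at 16 and 12.6 CPM, a ratio of 1.27 (1.06 to 1.53). In the other direction, Psma5 had 63 and 81 counts, or 3.25 and 5.29 CPM, a ratio of 0.615 (0.435 to 0.865). Psma5 was thus the lowest of the core subunits compared, and its interval does not overlap those of Psma1 and Psma7. Psma2 (1.15), Psma4 (0.849) and Psma3 (0.79) had intervals that include 1. Psma6, which is as necessary to the ring as the others, had 2 counts in db/db against 0 in db/m, where 3 counts would be 0.196 CPM. The treatment of reads with several matches was not given in the sources used here. Its level is therefore uncertain, and no ratio is given.

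**Figure D2:**
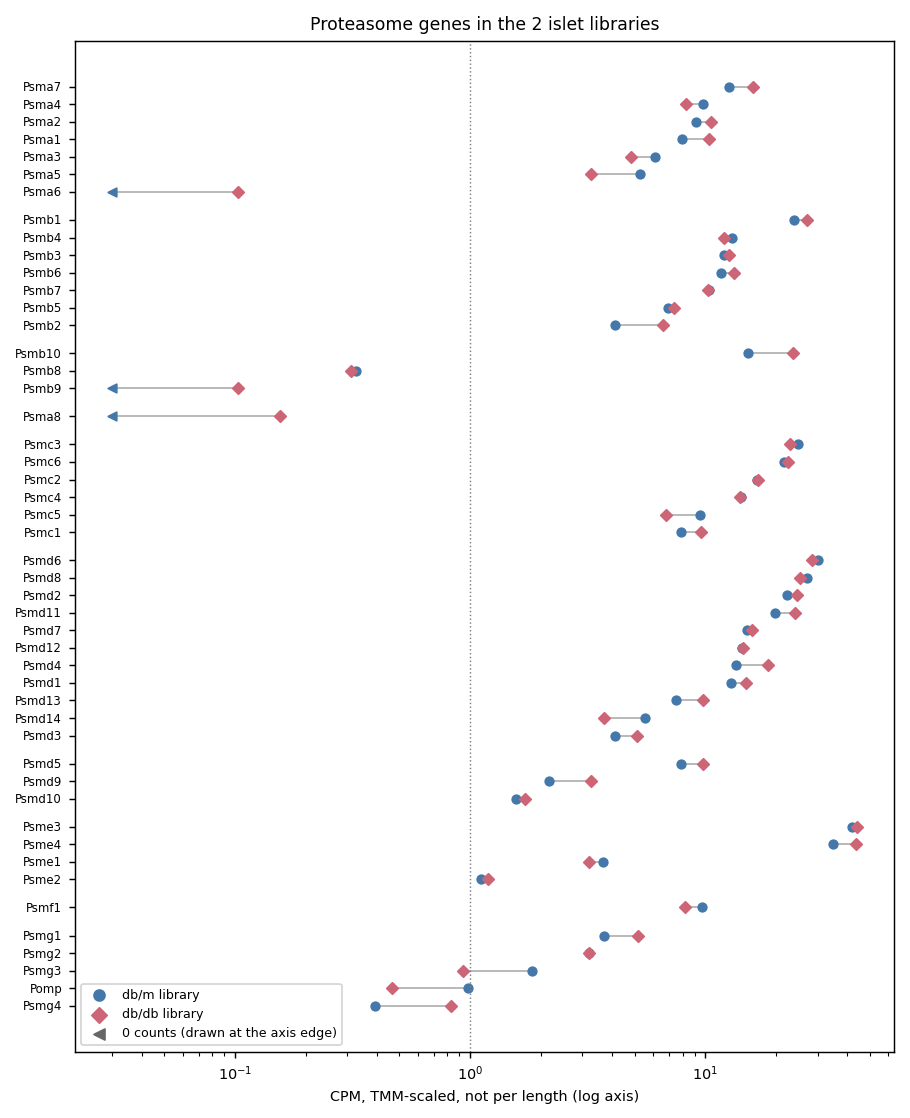
TMM-scaled CPM of each proteasome gene with a count in db/m (circles) and the db/db library (diamonds), grouped by role, on a log axis; triangles mark 0 counts. CPM are not corrected for gene length, so only the paired symbols of a line can be compared, and most pairs lie close together, as for Psmb7 at 10.2 CPM (db/db) and 10.4 CPM (db/m).

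The beta ring was more even. Of its 7 subunits 5 had a ratio above 1 and 2 below, with a median log2 ratio of 0.09 and 1 interval that excludes 1. The 3 subunits with cutting sites were all near 1. Psmb5, which cuts after hydrophobic residues, had 143 counts in db/db against 106 in db/m, a ratio of 1.07 (0.824 to 1.38). The microRNA gene Mir686 lies within Psmb5 and had 73 and 56 counts, a ratio of 1.03 (0.717 to 1.49). Whether reads of the shared stretch were counted for Psmb5 is not known. Psmb6, which cuts after acidic residues, had 257 and 178 counts, a ratio of 1.14 (0.939 to 1.39). Psmb7, which cuts after basic residues, had 198 and 159 counts, a ratio of 0.984 (0.795 to 1.22). The exception was Psmb2, a structural subunit, with 128 and 63 counts or 6.61 and 4.11 CPM, a ratio of 1.61 (1.18 to 2.21). Psmb1 (1.13), Psmb3 (1.05) and Psmb4 (0.921) had intervals that include 1.

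The immunoproteasome subunits did not share one level. Psmb10 had 457 counts in db/db against 232 in db/m, or 23.6 and 15.2 CPM, a ratio of 1.56 (1.33 to 1.83). Psmb8 had 6 and 5 counts, a ratio of 0.948 whose interval, 0.241 to 3.93, shows that a difference was not detectable at this depth. Psmb9 had 2 and 0 counts, at or under the floor of 3 counts in both libraries, and no ratio is given. Psmb10 was thus the only one of the 3 with counts enough to compare, and the other 2 together had 8 counts in db/db and 5 in db/m. The thymus-specific core subunit Psmb11 had 0 counts in both libraries, and the testis-specific Psma8 had 3 and 0.

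Psmb10 lies on chromosome 8 (105935728 to 105938392 in GRCm38.p6), 1158 bases from Lcat on one side and 1865 bases from Ctrl, an acinar protease gene, on the other. Lcat, which encodes an enzyme that esterifies cholesterol in plasma, had 410 counts in db/db against 170 in db/m, a ratio of 1.91 (1.59 to 2.29). Ctrl had 433805 and 359019 counts, a ratio of 0.955 (0.951 to 0.959). Lcat was chosen after its values were seen. The part of either neighbour in the counts of Psmb10 was not tested.

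Because leukocytes carry the immunoproteasome without stimulation, their markers are given beside these values. The 11 leukocyte markers in the table had 235 counts in db/db against 199 in db/m, or 12.1 and 13 CPM, a ratio of 0.933 (0.769 to 1.13). Of the 3 compared, Lyz2 was higher (2.28, 1.52 to 3.49), while Cd74 stood at 0.576 (0.417 to 0.792) and Ptprc at 0.732 (0.407 to 1.31). Cd3e was at 0 counts in db/db and 1 in db/m, and Itgam at 1 and 0. Also too low to compare, Csf1r had 18 counts in db/db and 3 in db/m, a ratio of 4.74 (1.38 to 25.1). Cd68 went the other way with 2 and 12 counts, a ratio of 0.132 (0.0143 to 0.592). The summed ratio therefore covers markers that differed in opposite directions. Among 30 genes of the interferon response, 18 were too low to compare, 0 were called higher, 1 was called lower at 2-fold (Parp9, 0.4, 0.264 to 0.599) and 11 were neither, with a median log2 ratio of -0.01. Over all genes compared 3.83% were called higher and 4.04% lower.

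Genes of antigen presentation, which supply peptides cut by the immunoproteasome to MHC class I molecules, were part of that list. The peptide transporter gene Tap1, next to Psmb9 on chromosome 17, had 32 and 18 counts, a ratio of 1.41 (0.765 to 2.66), and Tap2 had 42 and 30, a ratio of 1.11 (0.676 to 1.83). Tapbp, which holds the MHC molecule at the transporter, stood at 1.16 (0.97 to 1.39). B2m, the light chain of MHC class I, had 120 and 149 counts, a ratio of 0.636 (0.496 to 0.815). The intervals of Tap1, Tap2 and Tapbp include 1 and that of B2m lies below it, whereas that of Psmb10 lies above.

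The ATPases of the 19S particle were close to 1 with 1 exception. Their summed counts were 1795 in db/db against 1448 in db/m, a ratio of 0.98 (0.914 to 1.05), and the median log2 ratio of the 6 genes was -0.01. Psmc5 had 132 and 146 counts, or 6.81 and 9.53 CPM, a ratio of 0.715 (0.56 to 0.91). The other 5 had intervals that include 1 and ranged from 0.933 for Psmc3 to 1.21 for Psmc1, the ATPase that helps open the gate of the core.

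Among the 11 non-ATPase subunits of the 19S particle, 8 had a ratio above 1 and 3 below, and the median log2 ratio was 0.14. Psmd4, a receptor that binds ubiquitin chains, had 359 counts in db/db against 206 in db/m, or 18.5 and 13.5 CPM, a ratio of 1.38 (1.16 to 1.64). Psmd13 followed with 189 and 115 counts, a ratio of 1.3 (1.02 to 1.65), and Psmd11, which helps fasten the particle to the core, with 464 and 302 counts, a ratio of 1.21 (1.05 to 1.41). Psmd14, the enzyme that removes ubiquitin from the substrate before it is degraded, went the other way with 72 and 85 counts, or 3.72 and 5.55 CPM, a ratio of 0.67 (0.482 to 0.927). Its partner in the particle, Psmd7, stood at 1.05 (0.88 to 1.25). The intervals of Psmd14 and Psmd4 do not overlap. The scaffold subunits Psmd1 (1.16) and Psmd2 (1.1) and the subunits Psmd6 (0.941) and Psmd8 (0.932) had intervals that include 1, as had Psmd3 (1.24) and Psmd12 (1).

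The activators are caps other than the 19S particle, and Psme3 and Psme4 were the proteasome genes with the most counts. Psme3, which encodes the nuclear activator PA28 gamma, had 857 counts in db/db against 644 in db/m, or 44.2 and 42.1 CPM, a ratio of 1.05 (0.948 to 1.17). Psme4, which encodes the activator PA200, had 849 and 534 counts, or 43.8 and 34.9 CPM, a ratio of 1.26 (1.13 to 1.4). Psme4 overlaps Erlec1 on chromosome 11, which stood at 1.14 (1.03 to 1.26), and since the use of strand was not given in the sources used here, reads in the shared stretch cannot be assigned to either gene. Of the 50 genes, 8 overlap another gene with a count, among them Psma3, Psmb5 and Psmd13. Psme1 and Psme2, which encode the interferon-inducible activator subunits PA28 alpha and beta, were at 0.875 (0.6 to 1.28) and 1.07 (0.547 to 2.13), from 62 and 56 and from 23 and 17 counts. Psmf1, an inhibitor of the core in the test tube, had 159 and 148 counts, a ratio of 0.849 (0.674 to 1.07).

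Factors that assemble the proteasome had few counts and wide intervals. Psmg1 and Psmg2 act as a pair on the alpha ring and stood at 1.39 (0.992 to 1.95) and 1 (0.676 to 1.49). The second pair on the alpha ring, Psmg3 and Psmg4, lay on opposite sides of 1. Psmg3 had 18 counts in db/db against 28 in db/m, a ratio of 0.508 (0.265 to 0.952), and Psmg4 had 16 and 6 counts, a ratio of 2.11 with an interval of 0.783 to 6.58 that includes 1. Psmg4 was below 1 CPM on average, as was Pomp, which guides the beta ring, with 9 and 15 counts and a ratio of 0.474 (0.183 to 1.16). The chaperones of the 19S base all had ratios above 1 and intervals that include 1, with Psmd9 at 1.51 (0.975 to 2.37), Psmd5 at 1.24 (0.983 to 1.57) and Psmd10 at 1.09 (0.623 to 1.92). Their summed counts, 286 and 178, gave a ratio of 1.27 (1.05 to 1.54).

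The spread between members was larger than counting error alone gives. The SD of the log2 ratio over the 42 genes was 0.35, where counting error accounts for 0.20. Over the 30 members with at least 100 counts in each library the SD was 0.24 and the counting error 0.14. The same values over the 5365 genes of the whole table with that many counts were 0.43 and 0.13. The interval of 14 members excluded the ratio of the summed proteasome counts (4 above, 10 below), a comparison that no scaling changes, and 39.6% of all genes compared had an interval that excluded that ratio. The 4 above were Psmb2, Psmb10, Psmd4 and Psme4. The 10 below were Psma3, Psma4, Psma5, Psmc3, Psmc5, Psmd6, Psmd8, Psmd14, Psmf1 and Psmg3.

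Quotients of parts within a library do not depend on the scaling of the libraries, though they do depend on gene length, so only their difference between libraries can be read. The summed counts of the 17 subunits of the 19S particle were 1.94 times those of the 14 subunits of the core in db/db against 2.01 times in db/m, which gives a ratio of 0.968 (0.902 to 1.04). The beta to alpha quotient differed by a ratio of 1.04 (0.919 to 1.17). Both intervals include 1. ATPases against non-ATPases of the 19S particle gave 0.915 (0.839 to 0.998), an interval that lies just below 1.

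Among the pairs of alternative subunits, the interval excluded 1 for Psmb10 against Psmb7. Psmb10 takes the place of Psmb7 in the immunoproteasome, and it had 69.8% of the counts of this pair in db/db against 59.3% in db/m (54.3% to 64.2%), a ratio of the quotients of 1.58 (1.21 to 2.07). Psmb8 had 4.03% of its pair with Psmb5 in db/db against 4.5% in db/m (1.48% to 10.2%), a ratio of 0.89 (0.22 to 3.79). Psmb9 had 0.772% of its pair with Psmb6 in db/db against 0% in db/m, for which the exact interval reaches 2.05%. Among the activators, Psme4 against the core gave 1.17 (1.03 to 1.33) and Psme3 against the core 0.981 (0.871 to 1.11).

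**Figure D3:**
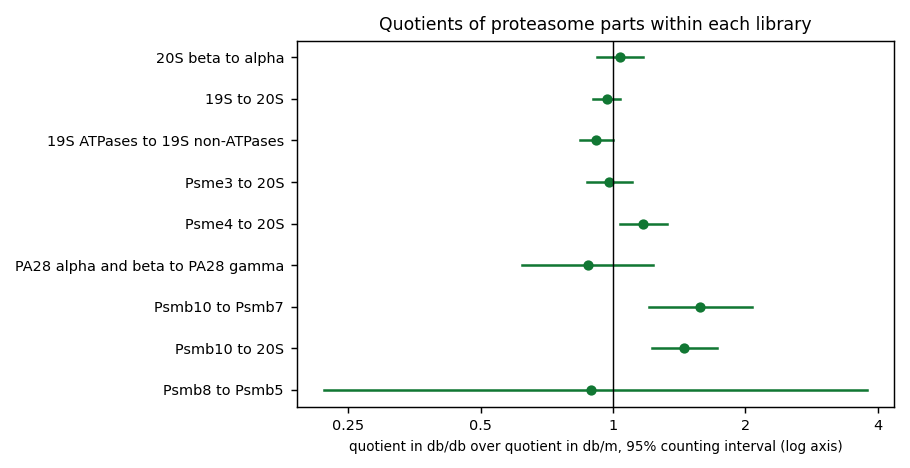
Quotient of summed counts of 2 proteasome parts in the db/db library divided by the same quotient in db/m, on a log axis, with 95% counting intervals. The value is 0.968 for the 19S particle to the core and 1.58 for Psmb10 to Psmb7, and the solid line marks no difference.

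Genes that work with the proteasome but carry other names reached larger single differences. Of 10 proteasome-associated genes 1 was called lower at 2-fold, 0 higher and 9 neither (4.04% and 3.83% of all genes compared), with a median log2 ratio of -0.24. The lower gene was Zfand5, which binds the particle and raises its activity, with 149 counts in db/db against 269 in db/m, a ratio of 0.438 (0.356 to 0.537). The 19S subunits outside the name rule were at 0.988 for the ubiquitin receptor Adrm1 (0.758 to 1.29) and 0.691 for Shfm1 (0.539 to 0.884). The deubiquitinase Usp14, which works on the 19S particle, stood at 0.703 (0.558 to 0.885). AI314180, the mouse symbol for the scaffold Ecm29, had 1523 and 1149 counts, a ratio of 1.05 (0.97 to 1.13), and Fbxo7, a partner of Psmf1, stood at 1.52 (1.12 to 2.08).

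The 18 genes that supply ubiquitin or carry substrates had a median log2 ratio of -0.08. Ubb, which encodes ubiquitin, stood at 0.666 (0.605 to 0.732), from 794 counts in db/db and 943 in db/m. Uba1, the enzyme that activates ubiquitin, went the other way with 2171 and 1357 counts, a ratio of 1.26 (1.18 to 1.35). The unfolding ATPase Vcp was at 0.967 (0.882 to 1.06), its cofactor Nploc4 at 1.4 (1.26 to 1.56) and the shuttle factor Rad23b at 0.961 (0.896 to 1.03).

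Among 11 factors that bear on transcription of the subunits, 1 was called lower, 0 higher and 10 neither (4.04% and 3.83% of all genes compared), with a median log2 ratio of 0.10. Nfe2l1, which activates proteasome genes when the proteasome is inhibited, had 1134 counts in db/db against 835 in db/m, a ratio of 1.07 (0.981 to 1.17). Ngly1, which deglycosylates that factor, stood at 1.09 (0.959 to 1.24). Ddi2, the protease that cuts it, was counted among the 18 genes above and stood at 0.631 (0.57 to 0.698). Nfe2l2, the activator of antioxidant genes, was at 1.36 (1.11 to 1.68). The lower gene was Maff, a small partner of these factors, with 42 and 104 counts, a ratio of 0.319 (0.217 to 0.461). Stat3 stood at 0.567 (0.507 to 0.633). No test of a difference between these lists and the proteasome genes was possible with 1 library in each group.

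**Figure D4:**
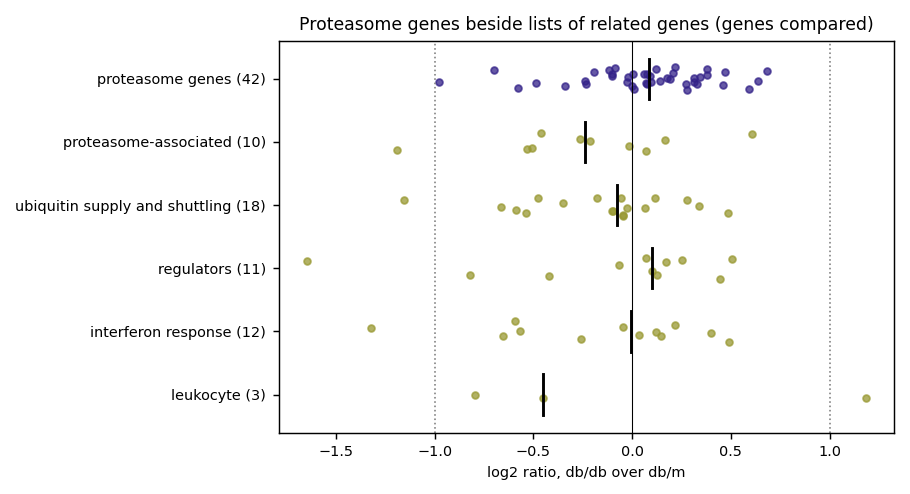
Log2 ratio of db/db over db/m for the genes compared in each list, with the number of genes in parentheses; each point is a gene, black bars are medians and dotted lines mark 2-fold. All 42 proteasome genes lie between the dotted lines, with a median of 0.08, and Maff lies lowest among the regulators.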

How the data were processed

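Islet RNA had been freed of ribosomal RNA before library construction, per the labels' protocols. The submitters' processing notes name HISAT2 2.0.4 and the builds mm10 and GRCm38. How reads were counted, with which annotation, strand setting and rule for reads with several matches, was not given in the sources used here. For each gene the authors deposited raw counts of reads, with 1 library in each of 2 groups, assigned by library title.

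Counts were scaled with TMM (edgeR 4.0.16, R 4.3.3). Ratios carry exact Clopper-Pearson 95% intervals from the 2 counts (Python 3.11.15, scipy 1.17.1), which cover counting error only, as PCR copies are not separate molecules. Quotients carry exact conditional intervals. A gene was compared at a mean unscaled CPM of at least 1 and called at 2-fold with an interval excluding 1. The floor was 3 counts. The scripts were tested on simulated data. All members are named, and of each other list the called members and up to 3 of the most abundant; further ones were chosen with their values in view, and some listed genes are not reported here. The members and lists were chosen with earlier results of these data known. Positions and promoters are from RefSeq, GRCm38.p6, where all 50 symbols had a position. Figures used matplotlib 3.10.9. Alternatives were other scalings (total counts, DESeq2 1.42.0 size factors, totals without acinar, Reg and hormone genes), filters, fold limits, a wider interval and fewer members.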

Additional observations from a re-analysis of the deposited data

How the results depend on the processing

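At 2-fold, 0 proteasome genes were called higher and 0 lower under each of the 3 other scalings, without a filter on low counts, at a mean of 10 CPM, with an interval at an error level of 0.001 in place of 0.05, without Psmc3ip, without Psmb10 and without the members that overlap another gene; the last 2 settings were chosen after the data were seen. Only the fold limit changed these counts, to 2 higher and 2 lower at 1.5-fold and to 8 and 4 by the interval alone. Scaling by total counts gave 5 genes at least 1.5-fold higher and 0 lower, against 15.2% and 5.49% of all genes compared. It gave 20 intervals above 1 and 1 below, against 35.2% and 9.85%. The summed ratio was 1.22 and the median log2 ratio 0.26, against a median of 0.20 over all genes compared. Leaving acinar, Reg and islet hormone genes out of the totals gave 5 and 0 genes at 1.5-fold and 18 intervals above and 2 below 1. The summed ratio was then 1.18 and the median 0.22, against a median of 0.16 over all genes compared. DESeq2 size factors gave 1.07 for the summed ratio and 0.07 for the median. Under either scaling by totals, 6 of 42 members crossed a ratio of 1, and under DESeq2 size factors 2 did. At a mean of 10 CPM, 1 gene was at least 1.5-fold higher and 0 lower, with 5 intervals above 1 and 0 below, because fewer genes were compared. The interval at 0.001 left 1 and 0 genes at 1.5-fold and 3 and 0 intervals. Shares over all genes were computed for the main setting and for total counts only, so the other settings have none beside them. Without Psmb10, 1 gene was at least 1.5-fold higher. Levels per length and coding length were not run, since no transcript lengths were used here. No paired analysis was possible because each group has 1 library. Counting error limits members with few counts, such as Psmg4, Pomp and Psmb8.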
